A study of Mus musculus with 6 samples.

Results

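The genes described here encode the proteins of the mitochondrial ribosome. They were taken as every protein-coding gene whose symbol is Mrpl or Mrps followed by a number, which gave 77 of the 39010 genes listed, 22676 of them protein-coding. All 77 had at least 1 FPKM, a read fragment count scaled to the length of the transcript and to the library, in at least 2 libraries and were tested. The groups were hindlimb skeletal muscle of wild-type mice of a mixed strain, taken at day 2 (P2), day 7 (P7) or day 14 (P14) after birth, with 2 libraries at each stage and 6 in all. No treatment or transgene was named for any library, and which hindlimb muscles were taken, and whether animals were pooled, is not given in the sources used here. The submitters call the replicates biological without naming animals, so the p-values measure the spread between these samples, which may be technical. The study set out to profile neonatal muscle growth.

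The mitochondrial ribosome translates the few mRNAs that mitochondrial DNA still encodes, all of them for membrane subunits of the respiratory chain and the ATP synthase. Its rRNAs come from mitochondrial DNA, while every one of its proteins is encoded in the nucleus, made in the cytosol and imported. Compared with its bacterial ancestor it has less rRNA and more protein, including many proteins with no bacterial counterpart. Muscle fibres rely on the respiratory chain for sustained contraction, and inherited defects of several of these proteins cause human disorders of heart, muscle or brain.

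Of the 77 genes, 49 encode proteins of the large subunit and 26 proteins of the small subunit. Both Mrps18a and Mrps30 sit in the large subunit in spite of their names. Among these 75, 47 have a bacterial counterpart and 28 have none. The remaining 2 encode no ribosomal protein in current structures: Mrps36 encodes a component of the alpha-ketoglutarate dehydrogenase complex of the citric acid cycle, and Mrps36-ps1 has a pseudogene's name although the deposited table lists it as protein-coding.

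Promoters are shown for 4 members, chosen after their values were seen, because the largest changes and the smallest one between P14 and P2 stand among them. Mrpl42, Mrps12 and Mrps21 rose, and Mrpl49 had the lowest change of all members. The windows run from 250 bases before to 50 bases after the start of the gene, 5′ to 3′ on the gene's strand, and were taken from RefSeq on GRCm38.p6. Capitals mark matches on either strand to the motifs of 3 transcription factors known to act on nuclear genes for mitochondrial proteins: GCGCA, any base and GCGC for NRF1, CCGGAAG for ETS factors such as GABP, and AAGATGGC for YY1. The Mrps12 window holds a YY1 and an ETS match, the Mrps21 window an NRF1 and an ETS match, and the Mrpl42 and Mrpl49 windows a YY1 match each, and the matches do not overlap.
Mrps12 promoter, chr7:28741772-28742071, minus strand: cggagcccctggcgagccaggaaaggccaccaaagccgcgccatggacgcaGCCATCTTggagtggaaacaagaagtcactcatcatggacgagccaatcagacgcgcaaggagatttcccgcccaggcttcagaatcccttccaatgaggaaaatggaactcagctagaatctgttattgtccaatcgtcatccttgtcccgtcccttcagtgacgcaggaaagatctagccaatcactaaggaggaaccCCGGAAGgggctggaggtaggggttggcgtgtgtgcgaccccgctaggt
Mrpl42 promoter, chr10:95501900-95502199, minus strand: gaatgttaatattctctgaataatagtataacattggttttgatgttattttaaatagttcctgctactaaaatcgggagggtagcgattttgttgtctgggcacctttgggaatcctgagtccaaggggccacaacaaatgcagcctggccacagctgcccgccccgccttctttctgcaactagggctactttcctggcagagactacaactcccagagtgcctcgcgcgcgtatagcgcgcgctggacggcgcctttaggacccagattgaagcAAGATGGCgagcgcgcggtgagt
Mrps21 promoter, chr3:95871465-95871764, minus strand: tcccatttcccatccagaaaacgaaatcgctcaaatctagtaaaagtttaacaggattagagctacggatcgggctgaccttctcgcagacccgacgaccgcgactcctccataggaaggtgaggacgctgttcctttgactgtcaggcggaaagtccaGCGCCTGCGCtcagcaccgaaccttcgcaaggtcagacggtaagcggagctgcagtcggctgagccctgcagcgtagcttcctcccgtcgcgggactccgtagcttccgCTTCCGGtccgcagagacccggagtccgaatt
Mrpl49 promoter, chr19:6057706-6058005, minus strand: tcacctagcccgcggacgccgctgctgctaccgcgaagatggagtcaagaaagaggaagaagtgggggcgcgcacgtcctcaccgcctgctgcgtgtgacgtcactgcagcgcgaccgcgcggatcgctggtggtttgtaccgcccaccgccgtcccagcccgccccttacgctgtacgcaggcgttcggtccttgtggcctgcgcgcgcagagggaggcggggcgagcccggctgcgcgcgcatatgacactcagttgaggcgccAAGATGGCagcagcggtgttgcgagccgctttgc

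RefSeq lists 73 promoters for 67 of the members. At least 1 of the 3 motifs stood in 56.2% of them, compared with 14.7% of all 32851 promoters of the same length, with no matching for base composition. The ETS motif was in 32.9% of members' promoters and 8.86% of all promoters, the NRF1 motif in 16.4% and 4.60%, and the YY1 motif in 16.4% and 2.75%. Changes between P14 and P2 were set beside the presence of each motif. The median log2 change was 0.73 for the 12 members with the NRF1 motif and 0.73 for the 55 without it, 0.78 for the 24 with the ETS motif and 0.73 for the 43 without it, and 0.84 for the 12 with the YY1 motif and 0.70 for the 55 without it. The genes that rose were 5 of the 12 with the NRF1 motif and 18 of the 55 without it, 10 of the 24 with the ETS motif and 13 of the 43 without it, and 6 of the 12 with the YY1 motif and 17 of the 55 without it. No test was made of these differences. Of the printed windows, those of Mrpl42 and Mrpl49 both hold the YY1 motif. Mrpl13, Mrpl15, Mrpl19, Mrpl38, Mrpl4, Mrpl54, Mrps28, Mrps34, Mrps35 and Mrps36-ps1 had no promoter entry.

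The whole set stood highest at P14. The summed FPKM of the 77 genes was 877 and 1268 at P2, 972 and 1083 at P7, and 2239 and 1691 at P14. Both P14 libraries lay above all 4 others, and the P2 and P7 libraries overlapped. As a share of the FPKM of all protein-coding genes the set made up 0.504% and 0.606% at P2, 0.580% and 0.609% at P7, and 0.832% and 0.733% at P14. The gap between P14 and the earlier stages was thus smaller as a share than as a sum, but the libraries kept the same separation. In bulk tissue fewer cells of a type and less RNA per cell cannot be told apart, and that holds for every value given here.

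**Figure D1:**
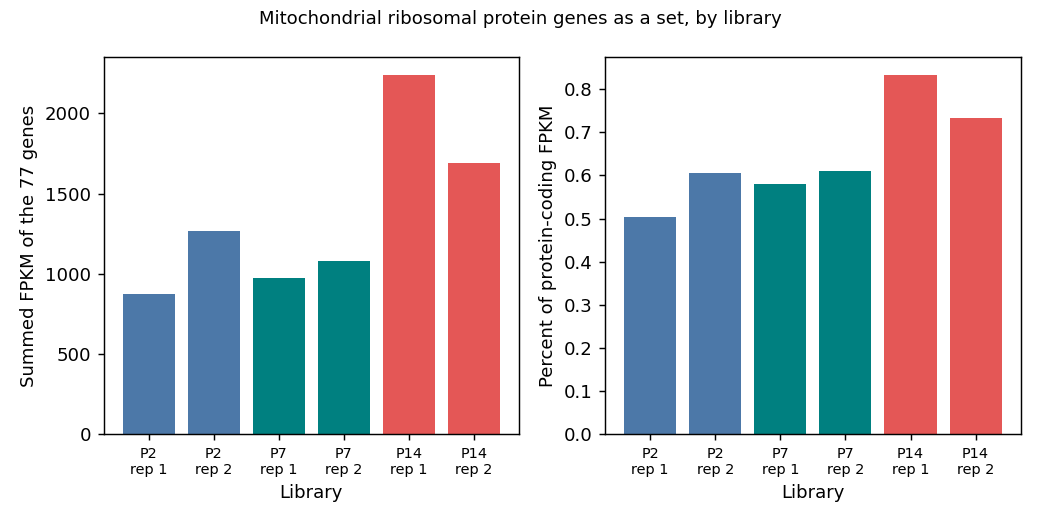
Summed FPKM of the 77 mitochondrial ribosomal protein genes (left) and their percent of the FPKM of all protein-coding genes (right), 1 bar per library and 2 libraries per stage. Both P14 bars, at 2239 and 1691 summed FPKM and at 0.832% and 0.733%, stand above the 4 bars of P2 and P7.

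The 2 subunits kept a near-constant proportion. The mean FPKM of the small-subunit members divided by that of the large-subunit members was 0.825 and 0.863 at P2, 0.824 and 0.818 at P7, and 0.821 and 0.808 at P14. The members differed widely in level: their mean over the 6 libraries ran from 3.67 FPKM for Mrps6 to 109 FPKM for Mrpl42, with a median of 12.1. Mrps21 (75.2 FPKM) and Mrpl33 (72.0 FPKM) followed Mrpl42, and Mrpl35 (4.27 FPKM) and Mrps27 (4.31 FPKM) stood just above Mrps6.

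**Figure D2:**
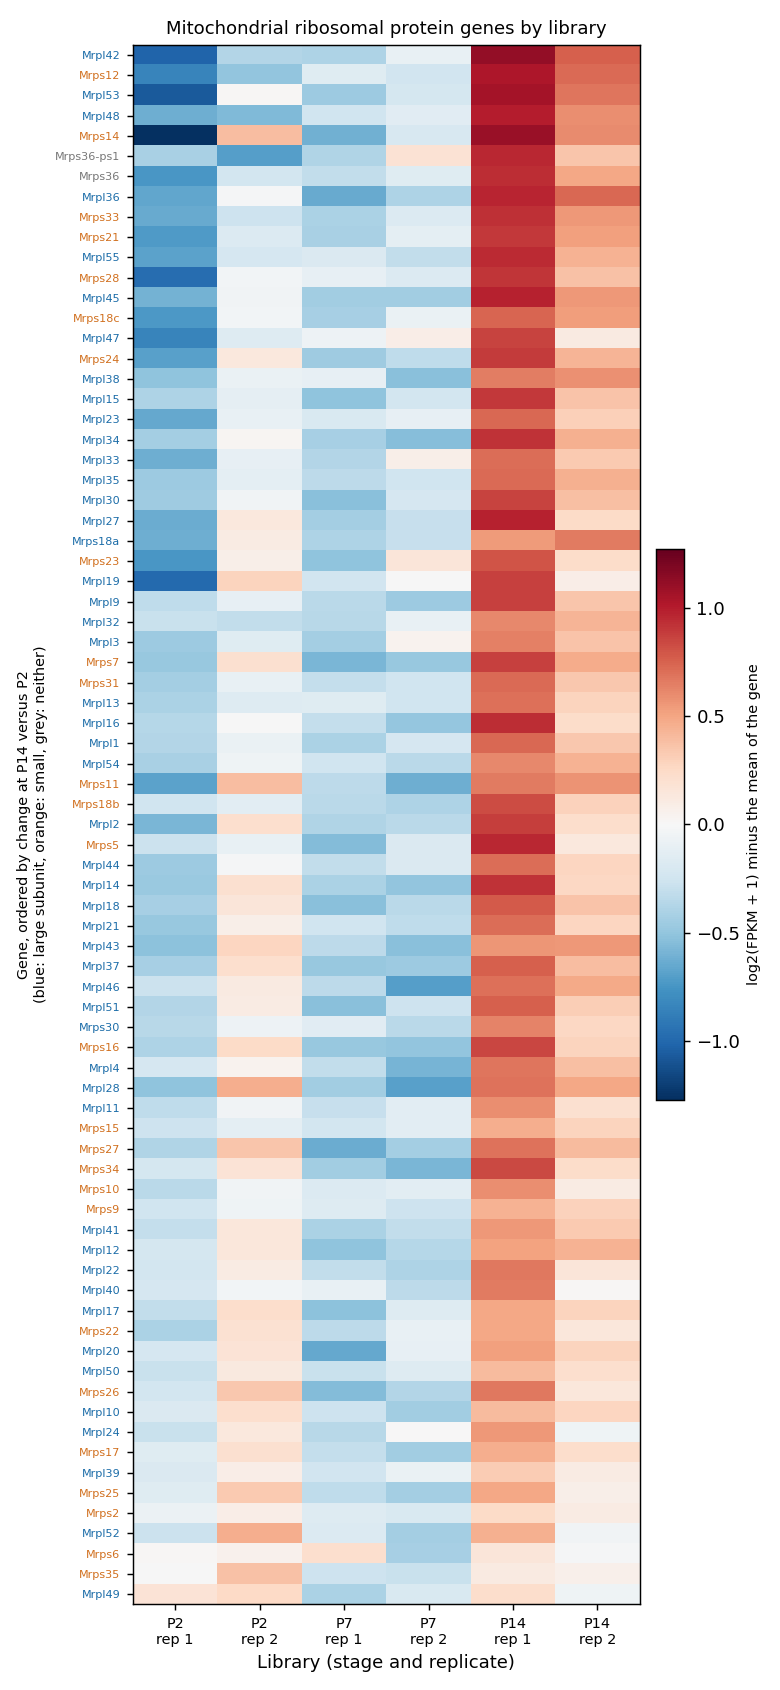
Each row is a mitochondrial ribosomal protein gene, ordered by its change at P14 versus P2, and each column a library. Colour is log2(FPKM + 1) minus the gene's mean over the 6 libraries; both P14 columns are above the mean in nearly all rows, and P2 replicate 1 is lowest for most genes at the top.

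The libraries of a stage differed as a block across these genes. P14 replicate 1 exceeded P14 replicate 2 in 76 of 77 members, with a median difference of -0.39 for replicate 2 minus replicate 1 on the log2(FPKM + 1) scale, where all tested genes had a median of -0.13. P2 replicate 2 exceeded P2 replicate 1 in 75 of 77 members, with a median of 0.42 for replicate 2 minus replicate 1 and 0.25 over all tested genes. At P7 the libraries split the members 47 to 30, with a median of 0.09. Muscle markers moved with the stages too: the summed FPKM of 7 muscle genes was 3401 to 4464 at P2, 4533 to 4580 at P7 and 8115 to 9643 at P14, although Ttn, the titin gene, was listed at 0 in P14 replicate 1 and at 926 FPKM in P14 replicate 2. No member was listed at 0 in any library.

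Between P14 and P2, 29 of the 77 genes rose and none fell at an adjusted p below 0.05 in limma over all 13566 genes tested, and 48 were not called. Of all tested genes 11.5% were called higher and 12.9% lower in the same comparison. At an unadjusted p under 0.05, 52 members were higher and 0 lower, and the share of all tested genes at that threshold was not counted. The log2 change on the log2(FPKM + 1) scale was positive in 75 members and negative in 2, and ran from -0.12 to 1.63. Of all 13566 tested genes it was positive in 6328 and negative in 7232. The members' median change was 0.74, against -0.05 over all tested genes, a difference of 0.78. With scaling to the protein-coding sum the medians were 0.38 and -0.34, a difference of 0.72. In that fit 24 members were called higher and 2 lower, where 9.23% of all genes were called higher and 36.7% lower. The count called higher was 55 with median-of-ratios scaling and 45 with quantile normalization, and 5 with no filter on low values. Of all genes in those fits 18.6%, 16.3% and 2.1% were called higher. Both P14 libraries were above both P2 libraries in 68 of 77 members and in 28.5% of all tested genes, and the stages overlapped in the other 9; both were below in no member and in 35.2% of all tested genes. Both P14 libraries lay above all 4 P2 and P7 libraries in 68 members and in 26.6% of all tested genes. The ratio of mean FPKM at P14 to mean FPKM at P2 had a median of 1.72 over the members and was at least 2 in 16 of them.

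The calls rested on single libraries, and each library was left out in turn. More members, and more of all tested genes, were called higher without P2 replicate 2. Fewer of both were called higher without any one of the other libraries. The P7 libraries enter only through the shared estimate of the spread. Mrpl48 and Mrps12 were the only members called in all 6 of these fits, so each other member's call for P14 versus P2 was lost without at least 1 library. The median change ran from 0.47 without P2 replicate 1 to 0.95 without P2 replicate 2, where that of all tested genes was -0.16 and 0.06. Xist, the RNA of the inactive X chromosome of females, exceeded 1 FPKM in P2 replicate 2 and P7 replicate 1 and in no P14 library. With it as a term in the fit 18 members, 14 of them among the 29, and 9.67% of all tested genes were called higher.

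**Figure D3:**
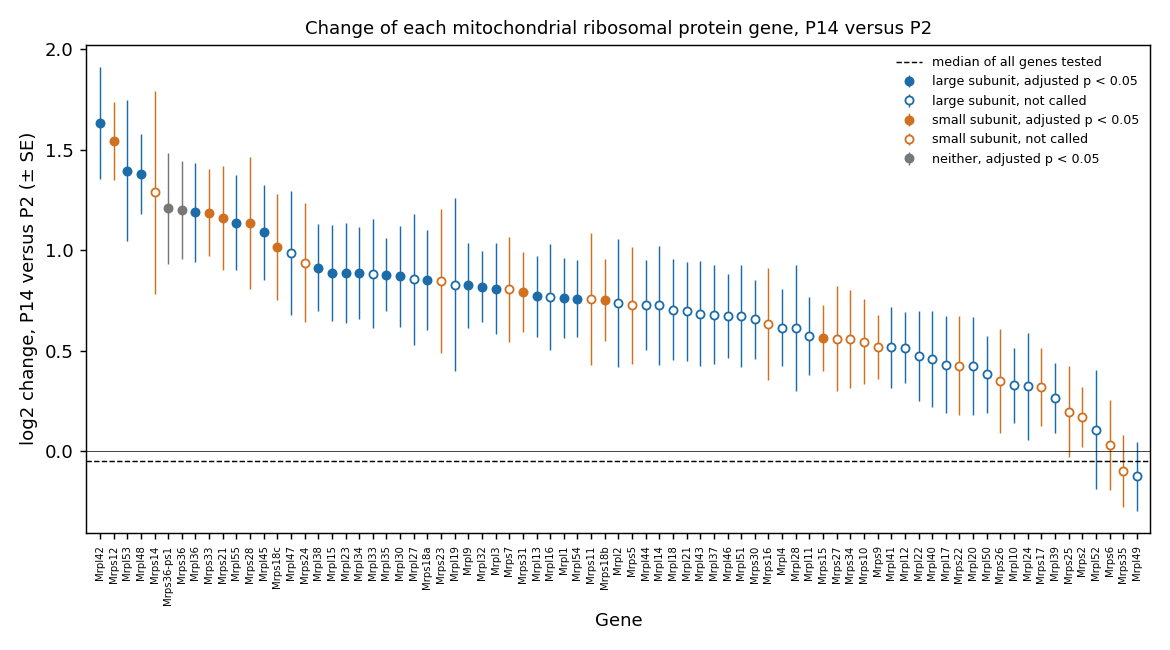
Log2 change of each of the 77 genes at P14 versus P2, on the log2(FPKM + 1) scale, with the standard error of the limma fit to 2 libraries per stage; filled points have an adjusted p below 0.05, and the dashed line is the median of all tested genes at -0.05. The changes run from 1.63 for Mrpl42 down to -0.12 for Mrpl49, and 29 points are filled.

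Among the large-subunit genes 19 of 49 rose, with a median change of 0.74 over the 49. Mrpl42, a protein with no bacterial counterpart and the most abundant member, had 46.7 and 74.0 FPKM at P2, 72.9 and 89.4 at P7, and 209 and 163 at P14. Its P14 libraries stood well above the other 4, and the P2 and P7 libraries overlapped. The log2 change at P14 versus P2 was 1.63 ± 0.28 (SE, adjusted p = 0.0098), the largest of all members. Mrpl48, part of the central protuberance of the large subunit, had 25.7 and 26.8 FPKM at P2, 33.4 and 36.1 at P7, and 80.6 and 60.5 at P14. No 2 stages overlapped, and the change of 1.38 ± 0.20 at P14 versus P2 had an adjusted p of 0.0060. Mrpl48 shares 889 bases with Rab6a, a Golgi GTPase gene whose mean was 22.6 FPKM at P14 and 19.4 FPKM at P2. Mrpl53, also without a bacterial counterpart, had 11.1 and 24.5 FPKM at P2, 17.3 and 20.6 at P7, and 51.5 and 39.6 at P14. Its P2 libraries differed by more than the P7 ones, and the change was 1.40 ± 0.35 (adjusted p = 0.0305). All 846 bases of Mrpl53 lie within Ccdc142, whose mean was 1.66 FPKM at P14 and 0.951 FPKM at P2.

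Mrpl36, a small protein shared with bacteria, had 5.47 and 9.13 FPKM at P2, 5.59 and 6.82 at P7, and 19.0 and 16.0 at P14. The P2 and P7 libraries overlapped, and the change at P14 versus P2 was 1.19 ± 0.24 (adjusted p = 0.0170). Mrpl45, which in mammalian structures lies at the exit of the peptide tunnel and anchors the ribosome to the inner membrane, had 5.06 and 7.90 FPKM at P2, 5.77 and 5.78 at P7, and 17.1 and 12.5 at P14. It rose by a log2 change of 1.09 ± 0.24 (adjusted p = 0.0197). Mrpl34 rose by 0.89 ± 0.23 (adjusted p = 0.0331), with 5.05 and 7.29 FPKM at P2, 5.08 and 4.59 at P7, and 14.4 and 10.1 at P14. Mrpl35, at a lower level, had 2.65 and 3.60 FPKM at P2, 2.99 and 3.21 at P7, and 7.29 and 5.86 at P14, a change of 0.88 ± 0.18 (adjusted p = 0.0170). Mrpl34 and Mrpl35 are both small proteins with bacterial counterparts, and in both the P14 libraries lay above all others, as in 26.6% of all tested genes.

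Mrpl23, a protein of the tunnel exit, had 19.2 and 28.8 FPKM at P2, 26.7 and 28.6 at P7, and 51.6 and 38.2 at P14 and rose by 0.89 ± 0.25 (adjusted p = 0.0430). Mrpl3, which is mutated in a human cardiomyopathy, had 9.10 and 11.5 FPKM at P2, 9.35 and 13.4 at P7, and 20.7 and 17.0 at P14 and rose by 0.81 ± 0.22 (adjusted p = 0.0416). Both calls lay close to the threshold. The large-subunit genes Mrpl1, Mrpl9, Mrpl13, Mrpl15, Mrpl30, Mrpl32, Mrpl38, Mrpl54 and Mrpl55 also rose, by log2 changes from 0.76 for Mrpl54 to 1.14 for Mrpl55.

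Several large-subunit genes did not pass the test. Mrpl44, whose protein has an RNase III-like fold, had 5.49 and 7.87 FPKM at P2, 6.19 and 6.88 at P7, and 13.6 and 9.81 at P14, a change of 0.73 ± 0.22 (adjusted p = 0.0559). Mrpl33 had 44.2 and 63.7 FPKM at P2, 52.7 and 72.2 at P7, and 113 and 86.7 at P14, a change of 0.88 ± 0.27 (adjusted p = 0.0562). In both genes the P14 libraries were above all others although the test was not passed, and 26.6% of all tested genes had P14 libraries so placed. Mrpl33 spans 73190 bases shared with Rbks and 4290 shared with Bre, so its values are uncertain.

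Mrpl12 forms the stalk that recruits translation factors, and its human counterpart also binds the mitochondrial RNA polymerase. It had 7.20 and 9.53 FPKM at P2, 5.71 and 6.45 at P7, and 12.7 and 11.9 at P14. On the deposited FPKM all P14 values were above all P2 values, which were above all P7 values. Both P7 libraries lay below both P2 libraries in 53.9% of all tested genes. The log2 change was 0.52 ± 0.18 at P14 versus P2 (adjusted p = 0.0776) and 0.91 ± 0.18 at P14 versus P7 (adjusted p = 0.0330).

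Among the small-subunit genes 8 of 26 rose, with a median change of 0.68 over the 26. Mrps12, the counterpart of the bacterial decoding-centre protein S12, had 5.83 and 7.66 FPKM at P2, 9.99 and 9.32 at P7, and 24.0 and 19.1 at P14. The 3 stages did not overlap, and the values climbed with age. The change at P14 versus P2 was 1.54 ± 0.19 with an adjusted p of 0.0042, the smallest among the members. Mrps21, a protein with a bacterial counterpart, had 41.9 and 61.7 FPKM at P2, 52.1 and 64.0 at P7, and 131 and 101 at P14 and rose by 1.16 ± 0.26 (adjusted p = 0.0216). Mrps33, Mrps28, Mrps31 and Mrps15 rose by log2 changes of 1.19, 1.14, 0.79 and 0.57.

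Mrps14 had the fifth-largest change without passing the test. It had 5.86 and 20.6 FPKM at P2, 9.80 and 13.4 at P7, and 34.4 and 24.0 at P14. The P2 libraries spanned the range of the P7 ones, and the change of 1.29 ± 0.50 had an adjusted p of 0.107. Mrps16 and Mrps22, whose human counterparts are mutated in fatal infantile respiratory chain deficiency, had changes of 0.63 ± 0.28 (adjusted p = 0.139) and 0.43 ± 0.25 (adjusted p = 0.243). Mrps16 had 17.9 and 28.3 FPKM at P2, 16.7 and 16.5 at P7, and 43.3 and 29.0 at P14. Mrps22 had 7.60 and 12.0 FPKM at P2, 8.03 and 9.70 at P7, and 15.0 and 11.6 at P14, so that its P14 and P2 libraries overlapped.

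The Mrps18 family has 3 genes, all related to bacterial S18, whose proteins take different places in the particle. Mrps18c rose by 1.02 ± 0.26 (adjusted p = 0.0334), with 12.6 and 20.9 FPKM at P2, 15.8 and 20.2 at P7, and 36.5 and 31.4 at P14. Mrps18a, the large-subunit paralogue, rose by 0.85 ± 0.25 (adjusted p = 0.0480), with 9.37 and 16.1 FPKM at P2, 11.2 and 12.0 at P7, and 22.1 and 24.1 at P14. Mrps18b rose by 0.75 ± 0.21 (adjusted p = 0.0391), with 7.59 and 8.31 FPKM at P2, 7.06 and 6.82 at P7, and 17.1 and 11.5 at P14. All 3 paralogues had both P14 libraries above the other 4, as did 26.6% of all tested genes. Mrps18a was the single member with P14 replicate 2 above P14 replicate 1.

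The lowest changes belonged to 6 genes, none of which was called in any pair of stages. Mrpl49 had 8.79 and 9.33 FPKM at P2, 5.58 and 6.60 at P7, and 9.15 and 7.38 at P14, a change of -0.12 ± 0.17 (adjusted p = 0.624) at P14 versus P2. Its P7 libraries were below all others on the deposited FPKM, where 53.9% of all tested genes had both P7 libraries below both P2 libraries. Mrps35 had 14.9 and 19.6 FPKM at P2, 12.3 and 12.1 at P7, and 16.3 and 15.6 at P14, a change of -0.10 ± 0.18 (adjusted p = 0.724), again lowest at P7. Mrps6, the counterpart of bacterial S6, had 3.67 and 3.81 FPKM at P2, 4.35 and 2.46 at P7, and 4.14 and 3.57 at P14, a change of 0.03 ± 0.22 (adjusted p = 0.931). Its P7 libraries spanned all the other values.

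Mrpl52 had 20.4 and 34.7 FPKM at P2, 22.0 and 18.2 at P7, and 34.4 and 24.0 at P14, a change of 0.11 ± 0.30 (adjusted p = 0.816). Mrps2 had 5.57 and 6.35 FPKM at P2, 5.18 and 5.06 at P7, and 7.23 and 6.44 at P14, a change of 0.17 ± 0.15 (adjusted p = 0.438). Mrps25 had 7.99 and 11.6 FPKM at P2, 7.00 and 6.39 at P7, and 13.1 and 9.54 at P14, a change of 0.20 ± 0.23 (adjusted p = 0.551). With standard errors of 0.15 to 0.30 these tests do not show equal levels at the 2 stages. When libraries were scaled to the sum of their protein-coding FPKM, Mrpl49 and Mrps35 were called lower, with changes of -0.47 (adjusted p = 0.0242) and -0.46 (adjusted p = 0.0236). In that fit 36.7% of all genes were called lower, and the median change of all genes was -0.34.

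**Figure D4:**
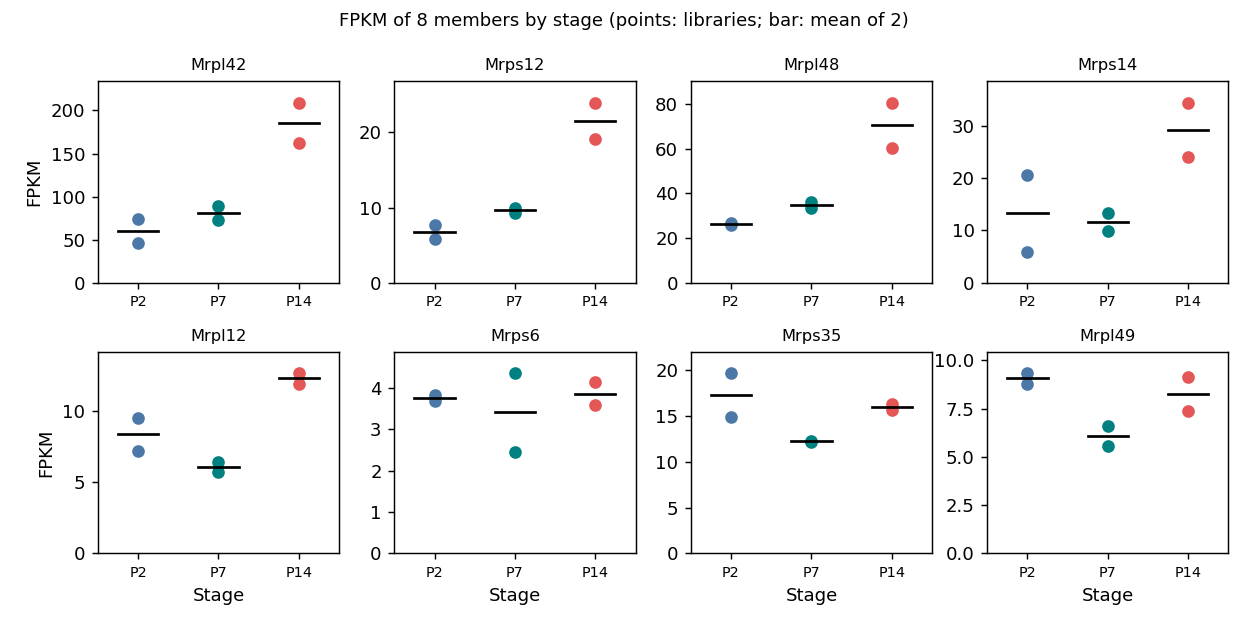
FPKM of 8 members at P2, P7 and P14, 1 point per library and a bar at the mean of 2 libraries, each panel with its own axis from 0. Mrpl42, Mrps12 and Mrpl48 have both P14 points well above the rest, Mrps14 has widely spread P2 points at 5.86 and 20.6, and Mrps6, Mrps35 and Mrpl49 have P14 points within or near the range of P2.

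Both genes outside the ribosome rose between P14 and P2. Mrps36 had 13.8 and 20.0 FPKM at P2, 18.7 and 21.1 at P7, and 46.2 and 33.6 at P14 and rose by 1.20 ± 0.24 (adjusted p = 0.0164). Mrps36-ps1 had 4.02 and 3.09 FPKM at P2, 4.10 and 6.58 at P7, and 11.9 and 7.50 at P14 and rose by 1.21 ± 0.28 (adjusted p = 0.0228). Reads of a gene and a near-identical copy can be assigned to either, so the values of this pair are uncertain.

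The members were also counted by ancestry. Of the 47 members with a bacterial counterpart 18 rose, with a median change of 0.76, and of the 28 without one 9 rose, with a median of 0.67. Whether these classes, or the large and small subunits, differ in their change was not tested.

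Between P7 and P2 no member was called in either direction, while 0.111% of all tested genes were called higher and 1.18% lower in limma. At an unadjusted p under 0.05, 1 member was higher and 2 were lower, and the share of all tested genes at that threshold was not counted. The smallest adjusted p was 0.131, for Mrpl49 with a change of -0.51 ± 0.17. The change was positive in 22 members and negative in 55, and ran from -0.54 to 0.51. Of all 13566 tested genes it was positive in 2711 and negative in 10854. Both P7 libraries were above both P2 libraries in 4 members and in 6.42% of all tested genes, and below both in 19 members and in 53.9% of all tested genes. The members' median change was -0.12 and that of all tested genes -0.27. The sign of the members' median depended on the scaling of the libraries: it was 0.21 with median-of-ratios scaling, 0.02 with scaling to the protein-coding sum and 0.18 with quantile normalization, and also 0.08 without P2 replicate 2. Relative to the median of all tested genes the members' median was 0.16 higher as reported, and 0.21, 0.18 and 0.18 higher under those 3 scalings. That difference was 0.04 without P2 replicate 1 and -0.06 with no filter on low values, where the median of all genes was itself -0.06. Under quantile normalization 1 member, Mrps12, was called higher at P7 than at P2 (log2 change 0.80, adjusted p = 0.0422). That fit called 1.01% of all tested genes higher.

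The authors' deposited table for this pair of stages lists 56 of the 77 members as higher at P7 and 21 as lower. Its p-value, which is not adjusted, was below 0.05 for 7 members in the higher direction and for none in the lower. By that rule 2.26% of the 39170 genes in the authors' deposited table were higher and 2.66% lower. Those genes are not filtered by level, while all 77 members passed the filter used here, so the shares have an unlike base. The 7 were Mrpl42, Mrps12, Mrps28, Mrps36, Mrpl23, Mrps36-ps1 and Mrps21. In the authors' deposited table Mrps12 has a fold change of 1.82 and Mrpl42 one of 1.72, while the mean FPKM here was 9.65 ± 0.473 at P7 and 6.74 ± 1.29 at P2 for Mrps12, and 81.2 ± 11.7 at P7 and 60.3 ± 19.3 at P2 for Mrpl42 (SD, n = 2 libraries each). The ratio of these means was 1.43 for Mrps12 and 1.35 for Mrpl42 as deposited, and 1.84 and 1.75 after median-of-ratios scaling. After that scaling the ratio was within 5% of the fold change in the authors' deposited table for all 77 members in each pair of stages, while at P7 versus P2 it was for none of them as deposited.

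Between P14 and P7, 22 members rose and none fell, where 8.75% of all tested genes were called higher and 1.6% lower. At an unadjusted p under 0.05, 64 members were higher and 0 lower in limma, and the share of all tested genes at that threshold was not counted. The change was positive in all 77 members and in 9743 of all 13566 tested genes. Among the members it ran from 0.17 for Mrps6 to 1.36 for Mrpl36, with a median of 0.88, and the median of all tested genes was 0.23. Both P14 libraries were above both P7 libraries in 75 of 77 members and in 53.8% of all tested genes. The ratio of mean FPKM at P14 to mean FPKM at P7 had a median of 1.95. The balance of calls depended on the scaling: with the protein-coding sum 6 members were called higher, where 3.88% of all genes were called higher and 10.4% lower; with median-of-ratios scaling it was 25 members, where the shares were 7.84% and 5.51%; and with quantile normalization it was 10 members, where they were 4.72% and 4.07%. The difference of the members' median from that of all genes was 0.65 as reported and 0.42 to 0.62 under the other 3 scalings.

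The number called was unstable for this pair as well. Leaving out any P14 or P7 library lowered the calls among members and among all tested genes alike. Leaving out either P2 library raised both. The calls thus moved across the whole table and not in the members alone. Over these fits the members' median change ran from 0.65 to 1.02, and that of all tested genes from 0.19 to 0.29. None of the calls named for P14 versus P7 held in every one of these fits. Mrpl36 (1.36 ± 0.24, adjusted p = 0.0296), Mrpl45 (1.21 ± 0.24, adjusted p = 0.0330), Mrps7 (1.20 ± 0.26, adjusted p = 0.0395), Mrpl42 (1.18 ± 0.28, adjusted p = 0.0461), Mrpl34 (1.17 ± 0.23, adjusted p = 0.0330) and Mrpl46 (1.11 ± 0.21, adjusted p = 0.0317) had the largest changes among those called.

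Mrps7, a protein of the head of the small subunit that is called here but not between P14 and P2 (0.81 ± 0.26, adjusted p = 0.0646), had 7.44 and 12.6 FPKM at P2, 6.88 and 7.42 at P7, and 20.5 and 15.3 at P14. Mrpl46 had 6.63 and 8.92 FPKM at P2, 6.32 and 4.67 at P7, and 13.9 and 11.9 at P14, with a change of 0.67 ± 0.21 at P14 versus P2 (adjusted p = 0.0585). Mrps27, a pentatricopeptide repeat protein, had 2.84 and 5.39 FPKM at P2, 2.24 and 2.71 at P7, and 7.09 and 5.61 at P14. Its change was 1.08 ± 0.26 at P14 versus P7 (adjusted p = 0.0475) and 0.56 ± 0.26 at P14 versus P2 (adjusted p = 0.158). In these 3 genes both P7 libraries lay below both P2 libraries on the deposited FPKM, as they did in 53.9% of all tested genes. The 2 comparisons share the P14 libraries.

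Whether the second interval differed from the first was tested directly, as the change from P7 to P14 minus the change from P2 to P7. The difference was positive in 76 of 77 members, with a median of 0.92 where all tested genes had 0.51. No member was called in limma (smallest adjusted p 0.157), and 0.0369% of all tested genes were called positive and 0.0295% negative. At an unadjusted p under 0.05 in limma there were 36 members, all positive, and the share of all tested genes at that threshold was not counted. The intervals differ in length and share the P7 libraries, so the scaling of those libraries enters both changes. With median-of-ratios scaling the members' median was 0.21 from P2 to P7 and 0.61 from P7 to P14. The difference was again called in 0 members. An F test over the 3 stages called 24 of the 77 members and 21.1% of all tested genes.

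The authors' deposited tables for the other pairs give p-values below 0.05, not adjusted, for 57 members higher at P14 than at P2, where 6.91% of the listed genes were higher and 5.4% lower by that rule, and for 50 members higher at P14 than at P7, where the shares were 5.99% and 3.59%. No member had such a p in the lower direction in either of the authors' deposited tables. In the authors' deposited table Mrps12 and Mrpl42 have fold changes of 3.44 and 3.35 at P14 versus P2.

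Other genes of mitochondrial translation were read against the 11.5% of all tested genes called higher between P14 and P2. Of the 7 mitoribosome subunits with other names, 2 (28.6%) rose and 0 fell, with a median of 0.60. They were Chchd1 (1.42 ± 0.34, adjusted p = 0.0259) and Ptcd3 (1.09 ± 0.18, adjusted p = 0.0088), both of the small subunit. Of 16 mitochondrial translation factors 3 (18.8%) rose and 0 fell, with a median of 0.57. Taco1, a translational activator of cytochrome c oxidase subunit I, had 2.76 and 3.96 FPKM at P2, 4.36 and 3.31 at P7, and 13.2 and 11.3 at P14 and rose by 1.62 ± 0.20 (adjusted p = 0.0043). Gfm1, the elongation factor G of mitochondria, rose by 1.26 ± 0.19 (adjusted p = 0.0066), and Pdf, the peptide deformylase, by 0.93 ± 0.15 (adjusted p = 0.0074). Slirp, which stabilises mitochondrial mRNAs, the initiation factor Mtif3 and the recycling factor Gfm2 had changes of 0.94, 0.88 and 0.72 with adjusted p-values of 0.0585, 0.0633 and 0.0583.

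Of 24 genes for mitoribosome assembly and rRNA modification 3 (12.5%) rose and 0 fell, with a median of 0.36, so the share called was near that of all tested genes. These were Malsu1, an assembly factor of the large subunit (1.16 ± 0.22, adjusted p = 0.0140), the GTPase gene Mtg1 (0.88 ± 0.23, adjusted p = 0.0342) and Fastkd2 (0.84 ± 0.21, adjusted p = 0.0294). Of 22 genes on a list of mitochondrial aminoacyl-tRNA synthetases, which also holds the amidotransferase subunit gene Qrsl1, 0 were called in either direction, with a median of 0.30. Lars2 and Qrsl1 had the largest changes of that list at 0.80 (adjusted p = 0.143) and 0.55 (adjusted p = 0.119).

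**Figure D5:**
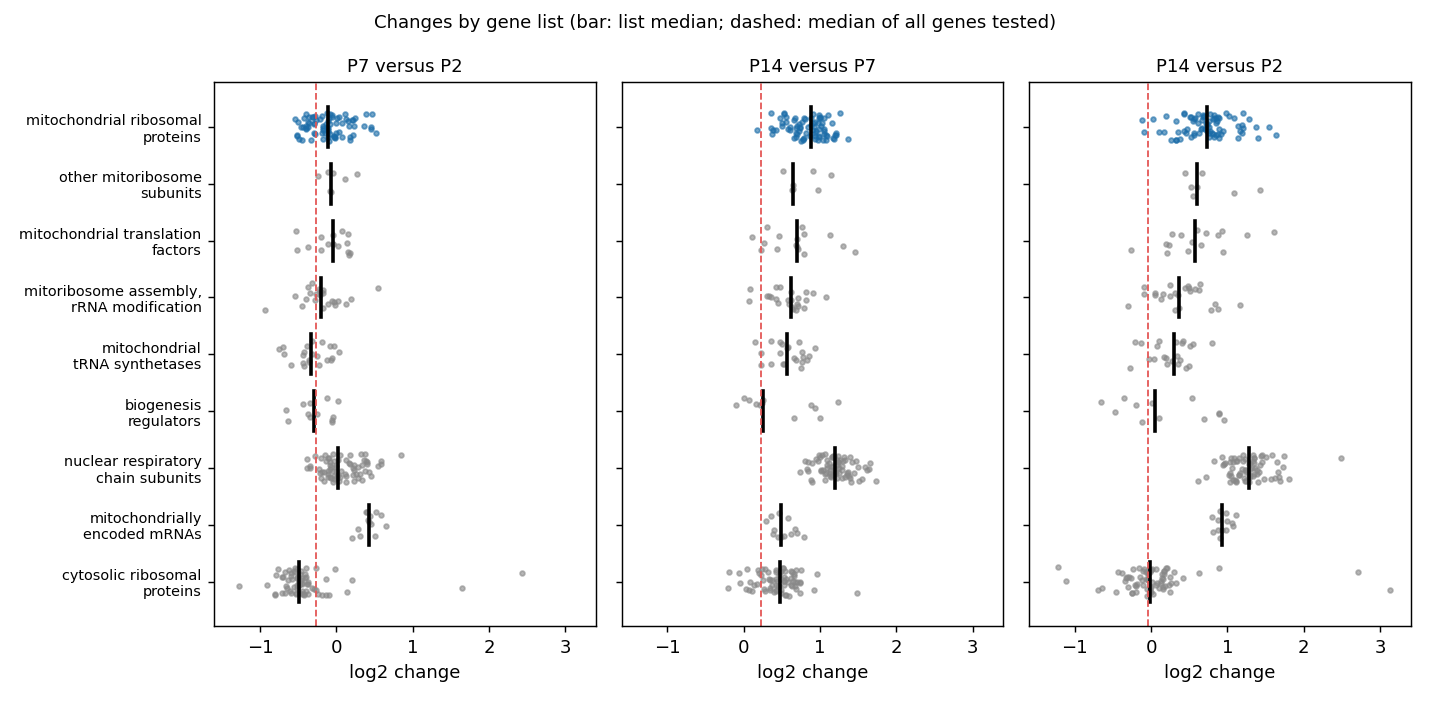
Log2 change on the log2(FPKM + 1) scale in each pair of stages for the 77 mitochondrial ribosomal protein genes (blue) and 8 other lists (grey), 1 point per gene, with a bar at the list's median and a dashed line at the median of all tested genes. At P14 versus P2 the medians are 0.74 for the mitochondrial ribosomal proteins, 1.28 for nuclear respiratory chain subunits and -0.02 for cytosolic ribosomal proteins; at P7 versus P2 the members' median of -0.12 turns positive under 3 other scalings.

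The respiratory chain, part of which this ribosome makes, was measured as well. Of 73 nuclear genes for respiratory chain and ATP synthase subunits 66 rose between P14 and P2 and 0 fell, with a median of 1.28, Cox7a1 (2.50 ± 0.41, adjusted p = 0.0086) and Ndufc1 (1.81 ± 0.28, adjusted p = 0.0071) changing most. Of the 13 mRNAs that mitochondrial DNA encodes 5 rose and 0 fell, with a median of 0.93. mt-Nd2 had a change of 1.11 ± 0.28 (adjusted p = 0.0295) and mt-Co3 one of 1.07 ± 0.31 (adjusted p = 0.0459). At P7 versus P2 none of these 13 was called, and their median was 0.43. The mean log2(FPKM + 1) of the Mrpl and Mrps genes minus that of the nuclear respiratory chain genes was -2.47 and -2.70 at P2, -2.72 and -2.81 at P7, and -3.12 and -3.15 at P14. Genes of the ribosome were thus further below those of the respiratory chain at P14 than at P2, and no test of this was run.

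The ribosome of the cytosol gave other values. Of 74 tested cytosolic ribosomal protein genes 3 rose and 2 fell between P14 and P2, with a median of -0.02. Rpl3l, a paralogue of Rpl3 used in striated muscle, changed by 3.13 ± 0.75 (adjusted p = 0.0265), Rpl29 by 2.71 ± 0.17 (adjusted p = 0.0008) and Rps27l by 0.89 ± 0.26 (adjusted p = 0.0470), while Rpl3 changed by -1.23 ± 0.20 (adjusted p = 0.0081) and Rps16 by -1.12 ± 0.26 (adjusted p = 0.0231). The mean log2(FPKM + 1) of the mitochondrial set minus that of the cytosolic set was -3.58 and -3.36 at P2, -3.10 and -3.23 at P7, and -2.75 and -2.80 at P14. Many cytosolic ribosomal protein genes have processed copies in the genome, so their single values are uncertain.

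Of 12 regulators of mitochondrial biogenesis 3 rose between P14 and P2 and 0 fell, with a median of 0.05. Ppargc1a, the coactivator PGC-1alpha, had 3.06 and 4.70 FPKM at P2, 3.07 and 4.35 at P7, and 8.60 and 8.10 at P14 and rose by 0.96 ± 0.22 (adjusted p = 0.0235). Tfam, which packages and transcribes mitochondrial DNA, rose by 0.69 ± 0.17 (adjusted p = 0.0289), and Tfb2m, an initiation factor of mitochondrial transcription, by 0.89 ± 0.20 (adjusted p = 0.0216). The nuclear receptor gene Esrra and the coactivator gene Ppargc1b had changes of 0.89 (adjusted p = 0.0784) and 0.53 (adjusted p = 0.0678). The genes of the factors whose motifs were searched in the promoters were not called: Nrf1 had a change of -0.47 ± 0.16 (adjusted p = 0.0774), Gabpa one of 0.10 ± 0.19 (adjusted p = 0.723) and Yy1 one of 0.01 ± 0.16 (adjusted p = 0.978). Myc had -0.11 ± 0.21 (adjusted p = 0.727).

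Members are spread over 17 chromosomes, with 10 on chromosome 11 and 9 on chromosome 17, per the coordinates in the files (GRCm38). Of the 75 found in GENCODE M21, 25 (33.3%) start head to head with another protein-coding gene, taken as starts at most 1000 bases apart or overlapping by at most 500, where 14.2% of 11832 tested protein-coding genes do. Of the 23 such partners that were tested 2 rose between P14 and P2 and 3 fell, where 11.5% of all tested genes rose and 12.9% fell. The partners had a median change of 0.15, and the members' own median was 0.74. Mrpl46 and Mrps11 are partners of each other and count on both sides.

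Mrps12 (chromosome 7, 28739640 to 28741820) starts 172 bases from Sars2, the mitochondrial seryl-tRNA synthetase gene, which had a log2 change of 0.41 (adjusted p = 0.293) while Mrps12 rose by 1.54. Mrpl36 (chromosome 13, 73331008 to 73332175) faces Ndufs6, a complex I subunit gene that rose by 1.34 (adjusted p = 0.0132); their starts overlap in GENCODE M21 but the genes do not on the deposited coordinates. Zfp661, partner of Mrps5, rose by 0.62 (adjusted p = 0.0389). The partners that fell were Ncapd2, a condensin subunit gene next to Mrpl51 (-1.25, adjusted p = 0.0101), Eme1, an endonuclease subunit gene next to Mrpl27 (-0.90, adjusted p = 0.0346), and Helq, a DNA helicase gene next to Mrps18c (-0.76, adjusted p = 0.0181). Of these pairs Mrps18c and Helq were called in opposite directions. Fau, which starts 59 bases from Mrpl49, had a change of -0.40 (adjusted p = 0.177).

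In 22 members the gene overlaps another gene with at least 1 FPKM in some library, and 4 of these were among the 29 that rose. Whether reads were counted by strand is not given in the sources used here, so shared stretches cannot be assigned. The most abundant neighbour was Ndufb5, a complex I subunit gene that shares 159 bases with Mrpl47 and had a mean of 241 FPKM at P14, 94.6 at P7 and 74.5 at P2.

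Across the 75 members with a transcript length, which ran from 463 to 7300 bases with a median of 1288, Spearman's rho between length and the change at P14 versus P2 was -0.24. Between mean FPKM and the change it was 0.32, and between mean FPKM and length -0.27. The pseudocount understates the change of genes at low FPKM, and its part in the rho of 0.32 was not tested. The genes share the same 6 libraries, and these values describe the set only.

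Markers of other cells moved with the stages beside these results. All 8 genes of a dividing-cell list fell between P14 and P2, with a summed level of 22.3 to 31.1 FPKM at P14 and 109 to 136 FPKM at P2. All 7 genes of a neutrophil and marrow list fell, with 2.39 to 3.48 FPKM at P14 and 166 to 282 FPKM at P2, and Elane and Camp were listed at 0 in both P14 libraries. Of 7 muscle genes 4 rose and 1, the neonatal myosin gene Myh8, fell, and Mb, the myoglobin gene, rose by 4.07 ± 0.52. Of 5 endothelial genes 1 rose (86.8 to 99.5 FPKM summed at P14 and 45.3 to 77.5 at P2), of 5 fibroblast genes none was called (1057 to 1202 and 966 to 1653 FPKM), and of 7 erythroid genes 2 fell (833 to 842 and 993 to 1936 FPKM). Of 3 tested brown adipocyte genes 2 fell, and Ucp1, the uncoupling protein of brown fat, was at 0.0946 and 5.51 FPKM at P14 and at 0 and 0.0361 FPKM at P2. The part of these cell populations in the changes of the mitochondrial ribosomal protein genes was not tested.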

How the data were processed

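RNA was extracted from hindlimb muscle with Trizol, and stranded total RNA libraries were made after ribosomal depletion, per the labels' protocols. The submitters' workflow on GRCm38 names TopHat2 2.0.8, Cuffdiff 2.2.1 and Cufflinks 2.2.1, beside FastQC 0.10.1 and CASAVA 1.2-14, per their processing notes as the labels give them; the annotation, the settings and any scaling between libraries are not given in the sources used here. The authors deposited FPKM per gene and library. The authors' deposited comparison tables hold a ratio as fold change (a signed score below 0 where a gene is lower) and an unadjusted p-value, per the file headers.

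Here log2(FPKM + 1) of genes with at least 1 FPKM in at least 2 of 6 libraries was fitted with a mean per stage in limma 3.58.1 (R 4.3.3), using empirical Bayes moderation and a trend in the variance. That left 13566 genes, and the fit had 3 residual and 3.80 prior degrees of freedom. Tests were two-sided, p-values were corrected over every gene in the fit by the Benjamini-Hochberg method, and an adjusted p below 0.05 was a call. The pseudocount understates the change of genes at low FPKM. The procedure was tested on simulated data.

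The members and lists were chosen with earlier results of these data known. Named with values were the 6 highest and the 6 lowest changes at P14 versus P2, the 6 largest called changes at P14 versus P7, any member called at P7 versus P2 or called lower, the 3 highest and 3 lowest mean levels, and Mrps18a, Mrps18b, Mrps18c, Mrpl12, Mrps12, Mrps36, Mrpl23, Mrpl3, Mrpl44, Mrps16 and Mrps22; of other lists the genes with the largest change, and 8 regulators always. Cox4i1 and Acta1 were on a list and had no match by symbol.

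Absolute depth is unknown. Provided that libraries were each scaled to their own total, the step between low FPKM values puts depth relative to P2 replicate 1 at 96.4% for P2 replicate 2, 94.4% and 82.9% for P7, and 72.0% and 74.8% for P14. Between 12175 and 13337 genes per library had at least 1 FPKM. The correlation of a stage's libraries across genes was 0.952 (P2), 0.964 (P7) and 0.967 (P14).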

Additional observations from a re-analysis of the deposited data

How the results depend on the processing

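Without any filter, 5 members were called higher at P14 versus P2 and 0 at P14 versus P7, compared with 29 and 22 as reported. The fit then tested 29496 genes, in place of 13566, and called 2.1% and 0.00678% of them higher. The count at P14 versus P2 was 55 with median-of-ratios scaling and 45 with quantile normalization. It was 18 with an Xist term and 13 in a fit of only the 4 libraries compared. Of all genes in those fits, in the same order, 18.6%, 16.3%, 9.67% and 7.28% were called higher. At P14 versus P7 the count was 48 with a minimum of 5 FPKM, 51 with protein-coding genes only and 51 with only the 4 libraries compared. It was 39 with robust moderation, 13 with an Xist term, 10 with quantile normalization and 6 with scaling to the protein-coding sum. In the same order, 21.6%, 16.4%, 18.2%, 12.2%, 6.55%, 4.72% and 3.88% of all genes were called higher. Scaling to the protein-coding sum also called 2 members and 36.7% of all genes lower at P14 versus P2, where 0 members were called lower as reported. Quantile normalization called 1 member and 1.01% of all genes higher at P7 versus P2. Why these counts moved was not tested.

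The members' median change at P14 versus P2 was 0.38 with scaling to the protein-coding sum, and 0.74 as reported. At P14 versus P7 it was 0.61 with median-of-ratios scaling, 0.41 with the protein-coding sum, 0.42 with quantile normalization and 0.65 with a pseudocount of 5, and 0.88 as reported. At P7 versus P2 the reported -0.12 turned to 0.21, 0.018 and 0.18 with median-of-ratios scaling, the protein-coding sum and quantile normalization. The same median-of-ratios scaling shifted the median of all tested genes at P7 versus P2 to 0.01, against -0.27 as reported.

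With each library left out in turn, the count called higher ran from 2 to 48 at P14 versus P2 and from 0 to 52 at P14 versus P7. The medians ran from 0.47 to 0.95 at P14 versus P2, from -0.35 to 0.082 (without P2 replicate 2) at P7 versus P2 and from 0.65 to 1.02 at P14 versus P7. A stage left with 1 library was assumed to vary like the others. No member was called lower in any of these fits.

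By the replicate numbers in the sample titles, deviations of same-numbered libraries correlated at -0.02 for P2 and P7, -0.16 for P2 and P14 and 0.03 for P7 and P14. The numbers in the submitters' sample descriptions differ from these at P2 and P14, and a pairing by them was not tested. A fit with the title's number as a replicate block called 14 members higher at P14 versus P2 and 0 at P14 versus P7. With 3 residual degrees of freedom and unknown depth, the median standard error of a member's change was 0.24.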

Other observations

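Genes with the name of a mitochondrial ribosomal protein that the files list as pseudogenes were left out of the set. Mrpl23-ps1 had 5.78 and 9.13 FPKM at P2, 9.22 and 4.91 at P7, and 13.5 and 10.1 at P14. Mrps36-ps2 had 0.380 and 2.75 FPKM at P2, 2.01 and 1.39 at P7, and 4.24 and 2.03 at P14. Mrpl48-ps had 0.336 and 2.79 FPKM at P2, 0.471 and 0.134 at P7, and 1.68 and 1.20 at P14. For Mrpl48-ps and Mrps36-ps2 the highest P2 library lay above the lower P14 library, while for Mrpl23-ps1 both P14 libraries lay above the other 4.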
